A study of Homo sapiens with 8 samples.

Results

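The 10 mRNAs described here encode the main cytosolic and mitochondrial heat shock chaperones, the proteins that hold, fold and refold other proteins. They were chosen by gene name: HSPA8, HSPA1A, HSPA1B, HSPA4, HSPA9, HSP90AA1, HSP90AB1, HSPH1, DNAJB1 and HSPD1. Of the 12235 genes listed in at least 1 library, 9 were members of this group, and HSPA1A was listed in none.

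The measurements came from ribosome profiling, in which the mRNA fragments protected by ribosomes (footprints) are sequenced, so that the footprint density on a coding sequence measures its ribosome occupancy. The cells were wild-type HEK293T, an established line from human embryonic kidney immortalized by the large T antigen of SV40. All groups grew in a custom DMEM with dialyzed serum, to which every omitted amino acid was added back (sufficient medium, Suff) or all but arginine (Arg-), leucine (Leu-) or methionine (Met-), so that the cells were starved for a single amino acid. Each of the 4 media was profiled once with cycloheximide, a drug that arrests elongating ribosomes before collection, and once without it (no CHX), which gave 8 libraries, 1 per condition. There is therefore no replicate error, no difference below was tested between conditions, and the intervals given are exact 95% intervals that cover counting error only. PCR reads without molecular identifiers are not independent molecules, so the true error is larger.

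Levels are given as RPKM, that is, reads per unit of coding length and per unit of library size. Because RPKM is a share of 1 library's reads, a shift common to every mRNA leaves it as it was, and a change in mRNA amount cannot be told apart from a change in ribosome loading. The reads on coding sequences numbered 538222 (Met-) to 6434043 (Leu-) with cycloheximide and 1302523 (Met-) to 3139745 (Suff) without it. The tables with cycloheximide list no mRNA under 64 reads and those without it none under 5 reads. The Met- library with cycloheximide listed 2021 genes, against 5466 to 8906 in the other 3 of its series, and only 4 members. An mRNA that a table does not list is below its read number, and a fold against it is a bound computed at that number. Among markers of the line, NEFM was listed in all 8 libraries at 19.1 to 54.1 RPKM and LIN28B in 7 of 8, while PAX2 reached 6.73 RPKM and was listed in 2. The hepatocyte marker ALB, the leukocyte marker PTPRC and the muscle marker MYH7 were listed in none, and the fibroblast marker COL1A1 was listed in 5, at 1.59 to 20.2 RPKM. ASNS, asparagine synthetase, a known target of the amino acid response, was higher in every starved library than in the Suff library of its series. It had 178 to 618 RPKM against 22.3 with cycloheximide and 392 to 689 against 68.0 without it. In Met- with cycloheximide the 64 reads needed for listing can fix that direction. The targets TRIB3 and DDIT3 were higher in all starved libraries without cycloheximide and in Arg- and Leu- with it. Neither was listed in Met- with cycloheximide, nor DDIT3 in Suff with it. The target CHAC1 was listed in no library.

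HSP70 proteins bind short hydrophobic stretches of unfolded proteins in a cycle of ATP binding and hydrolysis. J proteins such as DNAJB1 deliver substrates and stimulate hydrolysis, and the large HSP70 relatives HSPA4 and HSPH1 act as nucleotide exchange factors that reset the cycle. HSP90 receives partly folded clients from HSP70, among them many kinases and receptors. In mitochondria, HSPA9 (mortalin) pulls imported proteins across the inner membrane and HSPD1 (HSP60) encloses them with its lid HSPE1 for folding. The constitutive forms are abundant in growing cells, and heat shock factor HSF1 drives the inducible forms, in particular HSPA1A and HSPA1B.

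The chaperones did not move as 1 group under starvation. HSPA8, the constitutive cytosolic HSP70, and its J protein partner DNAJB1 were lower in every starved library than in the Suff library of the same series, except that with cycloheximide in Met- both could only be bounded. HSPA9, the mitochondrial HSP70, was higher in the 5 comparisons that could show either direction. In Met- with cycloheximide it was higher too, but there 64 reads were already worth more than its Suff level, so any listed value had to be higher. The HSP90 mRNAs, the exchange factors and HSPD1 stayed within 2-fold of Suff without cycloheximide, and most of them were higher in Arg- and Leu- with it. All 3 ratios of a series share 1 Suff library, so a deviation of that library would appear in all 3, and this was not tested.

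**Figure D1:**
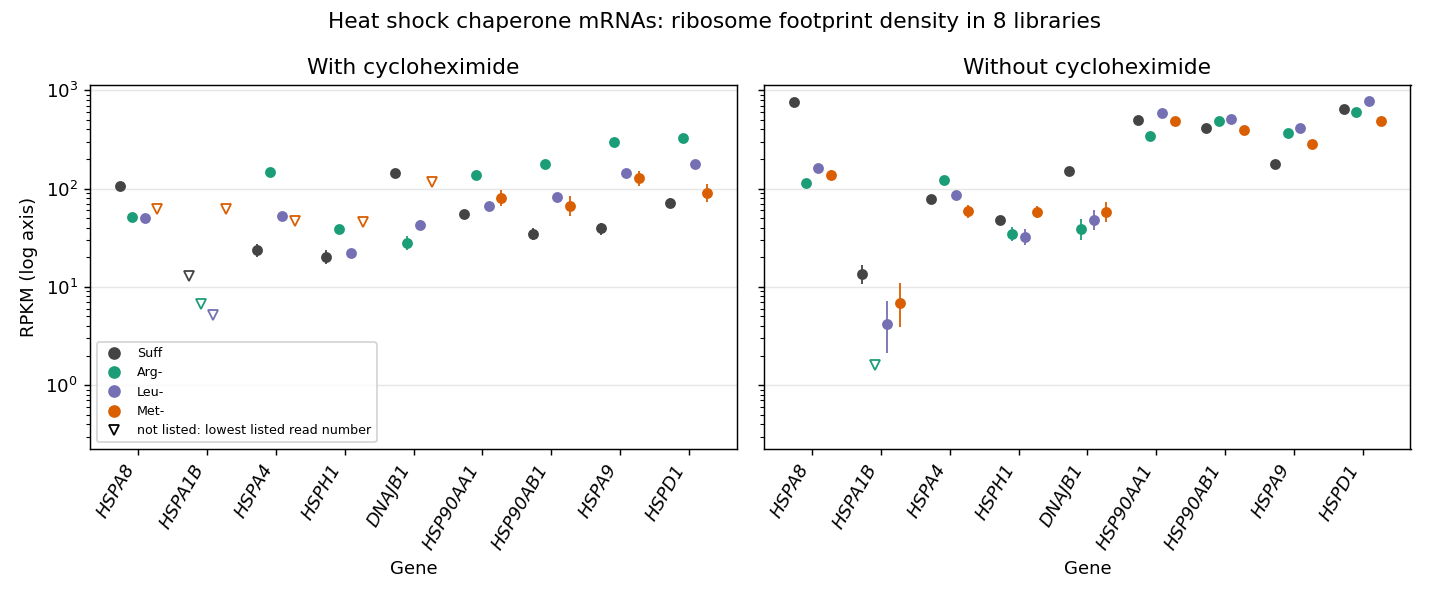
Footprint density (RPKM, log axis) of the 9 listed chaperone mRNAs in the 4 media, with cycloheximide on the left and without it on the right. Points are single libraries, bars are exact 95% counting intervals and open triangles mark the lowest read number listed for an mRNA that was not listed. HSPA8 stood at 754 RPKM in Suff without cycloheximide and between 114 and 163 RPKM in the starved libraries.

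HSPA8 (ENSG00000109971, GRCh38 chr11:123057489-123062136, minus strand) had the highest RPKM of all members in Suff without cycloheximide, with no correction for sequence shared with other genes. Its level was 754 RPKM (4595 reads) in Suff, 114 RPKM (356 reads) in Arg-, 163 RPKM (474 reads) in Leu- and 139 RPKM (351 reads) in Met-. It was thus the 298th most occupied mRNA in Suff and between the 1242nd and 1522nd in the starved libraries. The RPKM in Suff was 6.62-fold that in Arg- (interval 5.94 to 7.40), 4.62-fold that in Leu- (4.20 to 5.09) and 5.43-fold that in Met- (4.87 to 6.07). Few mRNAs had a lower log2 ratio, with 10 of the other mRNAs compared below HSPA8 in Arg-, 5 in Leu- and 21 in Met-, of 7466, 7565 and 7897 in all. HSPA8 was therefore near the low end of all mRNAs compared in each starvation without cycloheximide.

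With cycloheximide the level of HSPA8 was 105 RPKM in Suff, 51.9 RPKM in Arg- and 50.5 RPKM in Leu-, and HSPA8 was not listed in Met-. The RPKM in Suff was 2.03-fold that in Arg- (1.79 to 2.30) and 2.08-fold that in Leu- (1.85 to 2.34). In Met- the bound was at least 1.71-fold lower, since 64 reads would have been 61.4 RPKM there. The direction was that of the other series but the size was smaller, and in Arg- 1132 of 6224 mRNAs had a lower ratio than HSPA8. When ratios were centred on the median of mRNAs listed in both libraries, the Arg- log2 ratio was -0.77 and no longer past 2-fold.

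DNAJB1 (ENSG00000132002, chr19:14514769-14518397, minus strand), a J protein that hands substrates to cytosolic HSP70, was also lower under starvation. Without cycloheximide its level was 150 RPKM in Suff (481 reads), 38.8 RPKM in Arg- (64 reads), 48.3 RPKM in Leu- (74 reads) and 57.8 RPKM in Met- (77 reads). The RPKM in Suff was 3.86-fold that in Arg- (2.97 to 5.09), 3.10-fold that in Leu- (2.42 to 4.01) and 2.59-fold that in Met- (2.03 to 3.34). All 3 starved libraries lay below Suff, and the direct ratio between starved libraries was largest for Met- over Arg-, at 1.49 (1.05 to 2.11). With cycloheximide its level was 143 RPKM in Suff, 28.2 RPKM in Arg- and 43.1 RPKM in Leu-, which is 5.08-fold lower (4.18 to 6.20) and 3.32-fold lower (2.84 to 3.89). In the Leu- comparison with cycloheximide only 59 of 6232 mRNAs had a lower ratio. In Met- with cycloheximide DNAJB1 was not listed, and the bound was at least 1.23-fold lower. DNAJB1 was the member whose level in Suff changed least between the series, at 1.05-fold without against with cycloheximide (0.912 to 1.20).

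HSPA1A and HSPA1B encode the stress-inducible cytosolic HSP70 from neighbouring single-exon genes on chromosome 6, at chr6:31815543-31817942 and chr6:31827738-31830254 on the plus strand. Their coding sequences of 1923 bases differed at 4 bases and at 0 of 641 residues, so a footprint can be assigned to 1 of them only where it covers such a base. The first of these stretches, coding bases 1695 to 1724, is shown because it is what a uniquely mapped read has to contain, with the differing base in capitals. It lies at chr6:31817451-31817480 in HSPA1A and at chr6:31829645-31829674 in HSPA1B:
HSPA1A: ggacaagaagaaggtGctggacaagtgtca
HSPA1B: ggacaagaagaaggtTctggacaagtgtca
The last coding bases, 1894 to 1923, hold 2 of the differences and run at chr6:31817650-31817679 in HSPA1A and chr6:31829844-31829873 in HSPA1B:
HSPA1A: gggtcaggcccCaccattgaggaggtAgat
HSPA1B: gggtcaggcccTaccattgaggaggtGgat
Of the 1894 windows of 30 bases in the HSPA1B coding sequence, 95.8% also occurred in HSPA1A and 97.4% on a transcript of some other gene, which left 49 windows found nowhere else. The levels of both genes are therefore uncertain.

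HSPA1A was listed in none of the 8 libraries and HSPA1B only without cycloheximide. The HSPA1B level was 13.4 RPKM in Suff (81 reads), 4.16 RPKM in Leu- (12 reads) and 6.78 RPKM in Met- (17 reads), and it was not listed in Arg-. The RPKM in Suff was 3.22-fold that in Leu- (1.75 to 6.48), 1.98-fold that in Met- (1.16 to 3.56) and at least 8.31-fold that in Arg-. All 3 values lie on the side of HSPA8 and DNAJB1, but they rest on few reads. In Arg- and Leu- the pair's mean was below the 10 RPKM needed to enter the counts below.

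HSPA4 (ENSG00000170606, chr5:133052013-133106449, plus strand) and HSPH1 (ENSG00000120694, chr13:31134973-31161904, minus strand) are the large HSP70 relatives that exchange the nucleotide of HSPA8. HSPA4 stood without cycloheximide at 78.8 RPKM in Suff, 124 RPKM in Arg-, 85.8 RPKM in Leu- and 58.7 RPKM in Met-. It was 1.57-fold higher in Arg- (1.39 to 1.77) and 1.34-fold lower in Met- (1.14 to 1.58), while in Leu- the interval of the fold (0.949 to 1.25) held 1 and the log2 ratio of 0.12 became -0.02 when centred. The direct ratio of the starved libraries was 2.11-fold lower in Met- than in Arg- (1.78 to 2.50). With cycloheximide HSPA4 was 23.6 RPKM in Suff, 148 RPKM in Arg- and 53.1 RPKM in Leu-, 6.28-fold higher (5.32 to 7.46) and 2.25-fold higher (1.90 to 2.70). HSPA4 thus ranked Arg- above Leu- in both series.

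HSPH1 stood without cycloheximide at 48.2 RPKM in Suff, 34.4 RPKM in Arg-, 32.3 RPKM in Leu- and 58.0 RPKM in Met-. It was 1.40-fold lower in Arg- (1.16 to 1.71) and 1.49-fold lower in Leu- (1.22 to 1.84), whereas in Met- it was 1.20-fold higher (1.01 to 1.43), a direction that turned to a log2 ratio of -0.05 when ratios were centred on all mRNAs. The direct ratio of Met- over Leu- was 1.79 (1.43 to 2.26), the largest rise of a listed member between those 2 libraries. With cycloheximide HSPH1 was 20.2 RPKM in Suff, 38.5 RPKM in Arg- and 21.9 RPKM in Leu-, so that the Arg- direction was opposite in the 2 series. The highest HSPH1 transcript differed between the series. Neither HSPA4 nor HSPH1 was listed in Met- with cycloheximide, where 64 reads were worth 47.2 and 46.2 RPKM, more than their Suff levels, so no direction can be given there.

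The cytosolic HSP90 pair comprises HSP90AA1 (ENSG00000080824, minus strand, measured transcript chr14:102081049-102139686), the form known to be the more inducible one, and HSP90AB1 (ENSG00000096384, plus strand, measured transcript chr6:44247866-44253883), the constitutive one. The measured HSP90AA1 transcript held 2562 coding bases, against 2196 in the transcript that Ensembl marks as canonical, and RPKM is per coding length. Without cycloheximide HSP90AA1 was 499 RPKM in Suff, 340 RPKM in Arg-, 581 RPKM in Leu- and 484 RPKM in Met-. HSP90AB1 was 410 RPKM in Suff, 486 RPKM in Arg-, 515 RPKM in Leu- and 390 RPKM in Met-. Both stayed within 1.5-fold of Suff, and in Met- the intervals of both folds held 1 (0.914 to 1.03 and 0.887 to 1.02). In Arg- the pair moved in opposite directions, HSP90AA1 1.47-fold lower (1.38 to 1.56) and HSP90AB1 1.19-fold higher (1.12 to 1.26). The RPKM of HSP90AA1 over that of HSP90AB1 was accordingly 1.22 in Suff (1.16 to 1.28), 1.13 in Leu- (1.06 to 1.20) and 1.24 in Met- (1.15 to 1.34), and 0.699 in Arg- (0.650 to 0.750).

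With cycloheximide HSP90AA1 was 54.9 RPKM in Suff, 139 RPKM in Arg-, 65.9 RPKM in Leu- and 80.5 RPKM in Met-. HSP90AB1 was 34.5 RPKM in Suff, 179 RPKM in Arg-, 82.4 RPKM in Leu- and 66.7 RPKM in Met-. In Arg- and Leu- both genes lay above Suff, with folds from 1.20 (1.06 to 1.36, HSP90AA1 in Leu-) to 5.19 (4.48 to 6.05, HSP90AB1 in Arg-). In Met- 64 reads were worth 54.1 RPKM for HSP90AA1 and 54.7 RPKM for HSP90AB1, so a listed value could not lie clearly below Suff. HSP90AA1 in Arg- was 2.53-fold higher with cycloheximide (2.25 to 2.84), opposite in direction to the series without it. The RPKM of HSP90AA1 over HSP90AB1 was 1.59 in Suff (1.33 to 1.90), 0.773 in Arg- (0.725 to 0.825), 0.80 in Leu- (0.736 to 0.870) and 1.21 in Met- (0.895 to 1.63). The order of the pair was thus the same in both series in Suff and Arg- and opposite in Leu-, and in Met- with cycloheximide the interval held 1.

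HSPA9 (ENSG00000113013, chr5:138553756-138575401, minus strand), the HSP70 of the mitochondrial matrix and motor of protein import, was higher in every starved library, a direction fixed by the listing in Met- with cycloheximide. Without cycloheximide it was 180 RPKM in Suff (1151 reads), 366 RPKM in Arg- (1202 reads), 413 RPKM in Leu- (1260 reads) and 282 RPKM in Met- (749 reads). The fold was 2.04 in Arg- (1.88 to 2.21), 2.30 in Leu- (2.12 to 2.49) and 1.57 in Met- (1.43 to 1.72). In Met- this was no extreme, as 2713 of 7897 mRNAs had a higher ratio, whereas in Leu- 290 of 7565 did. With cycloheximide it was 39.3 RPKM in Suff, 300 RPKM in Arg-, 143 RPKM in Leu- and 128 RPKM in Met-. The folds were 7.63 (6.62 to 8.83), 3.63 (3.14 to 4.21) and 3.25 (2.60 to 4.05). In that Met- library 64 reads were worth 58.4 RPKM, more than the Suff level, so a listed value had to be higher. With ratios centred on the median of mRNAs listed in both libraries, the Met- log2 ratio of 1.68 was 0.79, no longer past 2-fold.

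The cytosolic and the mitochondrial HSP70 exchanged places. In Suff the RPKM of HSPA9 over that of HSPA8 was 0.238 without cycloheximide (0.223 to 0.254) and 0.374 with it (0.316 to 0.440). Without cycloheximide the same ratio was 3.21 in Arg- (2.85 to 3.63), 2.53 in Leu- (2.27 to 2.82) and 2.03 in Met- (1.79 to 2.31). With cycloheximide it was 5.78 in Arg- (5.25 to 6.36) and 2.82 in Leu- (2.58 to 3.10). These are ratios of levels per length within 1 library, so library scaling does not enter them. They are not corrected for coding windows shared with other genes, 54.1% for HSPA8 and 25.6% for HSPA9. HSPA8 lay above HSPA9 in both Suff libraries and below it in all 5 starved libraries that listed both.

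HSPD1 (ENSG00000144381, chr2:197486584-197499840, minus strand), the mitochondrial chaperonin, was among the most occupied mRNAs. Without cycloheximide it was 643 RPKM in Suff, 608 RPKM in Arg-, 770 RPKM in Leu- and 488 RPKM in Met-. It kept within 1.32-fold of Suff, with an interval holding 1 in Arg- (0.892 to 1.002). It was the highest of the members in Arg- and Leu-, and in Met- its counting interval overlapped that of HSP90AA1. It stood ahead of HSPA8 in all 3. With cycloheximide it was 71.6 RPKM in Suff, 331 RPKM in Arg-, 177 RPKM in Leu- and 90.8 RPKM in Met-. Those folds were 4.62 in Arg- (4.11 to 5.21), 2.48 in Leu- (2.20 to 2.80) and 1.27 in Met- (0.985 to 1.62).

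The lid of HSPD1 did not stay level with it. HSPE1, the co-chaperonin whose gene lies head to head with HSPD1, was named here after its values were seen. It was 1545 RPKM in Suff without cycloheximide, 325 RPKM in Arg-, 605 RPKM in Leu- and 303 RPKM in Met-, log2 ratios of -2.24, -1.35 and -2.35, against -0.08, 0.26 and -0.40 for HSPD1. The RPKM of HSPD1 over that of HSPE1 was 0.416 in Suff (0.391 to 0.442), 1.87 in Arg- (1.59 to 2.21), 1.27 in Leu- (1.12 to 1.45) and 1.61 in Met- (1.33 to 1.96). HSPE1 was listed in no library with cycloheximide. Of its 30-base coding windows, 96.8% also occurred on transcripts of other genes, 50.5% on the read-through gene HSPE1-MOB4, so its level is uncertain.

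**Figure D2:**
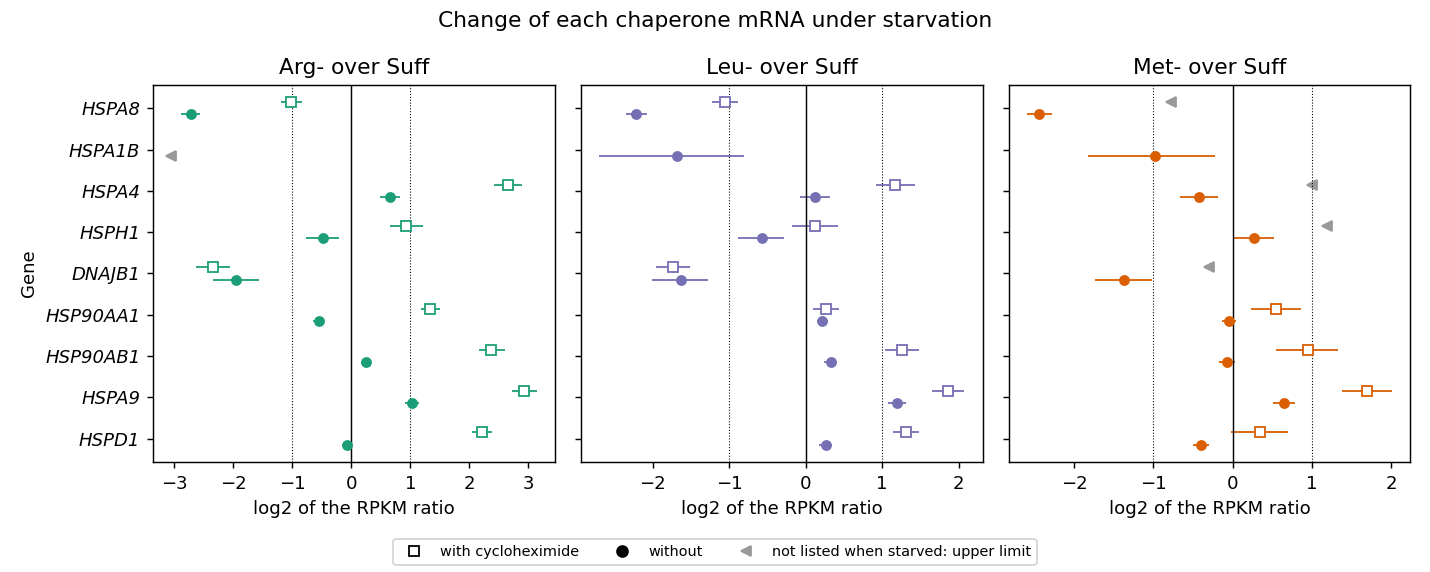
Log2 of the RPKM ratio of each starved library over Suff for the 9 listed chaperone mRNAs, with cycloheximide as open squares and without it as filled circles. Bars are exact 95% counting intervals, grey triangles are upper limits where the starved library did not list the mRNA, and dotted lines mark 2-fold. HSPA8 and DNAJB1 lie left of 0 and HSPA9 right of 0 in every panel, where the Met- value of HSPA9 with cycloheximide could lie nowhere else if listed.

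The order of the levels rests on the same values as above. It is not corrected for coding windows shared with other genes (0% for HSPA4 and HSPH1, 54.1% for HSPA8, 68.4% for HSPD1). The counting intervals do not cover this, so the place of a member is less certain than they show. In Suff without cycloheximide the order was HSPA8, HSPD1, HSP90AA1, HSP90AB1, HSPA9, DNAJB1, HSPA4, HSPH1 and HSPA1B, and no neighbours had overlapping intervals. In Arg- it was HSPD1, HSP90AB1, HSPA9, HSP90AA1, HSPA4, HSPA8, DNAJB1 and HSPH1. There the neighbours HSPA9 and HSP90AA1, HSPA4 and HSPA8, and DNAJB1 and HSPH1 overlapped in their counting intervals. In Leu- HSPA8 stood after HSPD1, HSP90AA1, HSP90AB1 and HSPA9 and ahead of HSPA4, DNAJB1, HSPH1 and HSPA1B, and only DNAJB1 and HSPH1 overlapped. In Met- HSPD1 and HSP90AA1 overlapped at the top, HSP90AB1, HSPA9 and HSPA8 followed, and HSPA4, HSPH1 and DNAJB1 overlapped at 57.8 to 58.7 RPKM. With cycloheximide the order in Suff began with DNAJB1 and HSPA8, and in Arg- with HSPD1 and HSPA9 while DNAJB1 came last of the 8 listed.

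The members were then counted against all mRNAs with a mean of at least 10 RPKM in the pair, on the scale log2((RPKM + 1)/(RPKM in Suff + 1)), which understates changes of low mRNAs. In Arg- without cycloheximide 1 of 8 members (HSPA9) was at least 2-fold higher, against 8.33% of all mRNAs, and 2 of 8 (HSPA8 and DNAJB1) were at least 2-fold lower, against 6.05%. The median log2 ratio of the members was -0.28 and that of all mRNAs -0.02. In Leu- without cycloheximide the same 3 mRNAs passed, 1 of 8 higher against 6.89% and 2 of 8 lower against 2.12% of all mRNAs. The medians were 0.17 for the members and 0.14 for all mRNAs, and of the other members HSPH1 had the lowest log2 ratio, -0.56, with 8.62% of mRNAs lower. In Met- without cycloheximide 0 of 9 members were at least 2-fold higher, against 20.2%, and HSPA8 and DNAJB1 were 2 of 9 lower, against 5.47%. The median was -0.40 for the members and 0.31 for all mRNAs. Of the 9 members, 7 had a log2 ratio below 0. The highest of these, HSP90AA1 at -0.045, had 32.4% of all mRNAs below it. The counting intervals of HSP90AA1 and HSP90AB1 held 1.

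**Figure D3:**
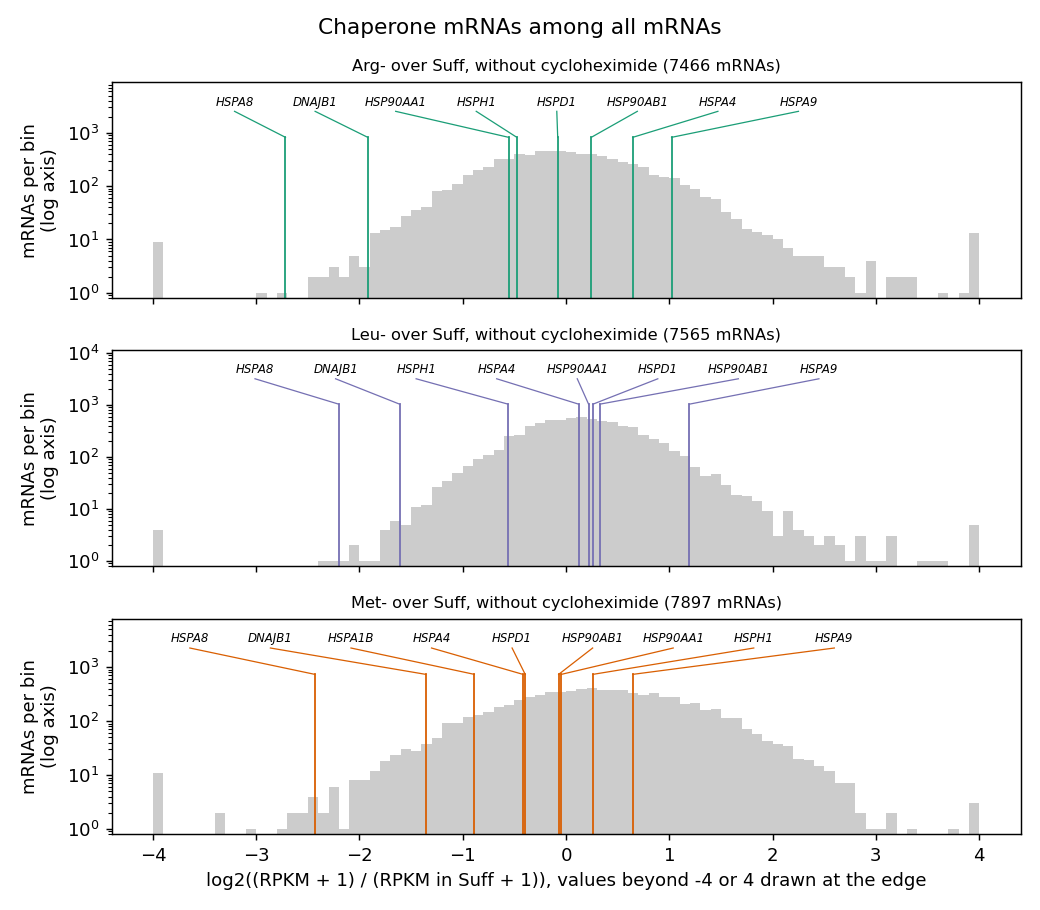
Histograms of the log2 ratio of all mRNAs with a mean of at least 10 RPKM in the pair, for Arg-, Leu- and Met- over Suff without cycloheximide, with the number of mRNAs per 0.1-wide bin on a log axis. Vertical lines mark the chaperone mRNAs, and HSPA8 sits in the far left tail of all 3 panels with 10, 5 and 21 mRNAs below it.

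With cycloheximide larger shares of all mRNAs passed 2-fold in Arg- and Leu-. The shares higher include mRNAs not listed in Suff and counted as 0, whereas the 8 members compared were all listed there. Members and shares are therefore not fully alike. In Arg- 5 of 8 members were at least 2-fold higher, against 29.7% of all mRNAs, namely HSPA9, HSPA4, HSP90AB1, HSPD1 and HSP90AA1. HSPA8 and DNAJB1 were the 2 of 8 at least 2-fold lower, against 18.4%. The median log2 ratio was 1.76 for the members and -0.01 for all mRNAs. In Leu- 4 of 8 were higher (HSPA9, HSPD1, HSP90AB1 and HSPA4), against 26.3%, and HSPA8 and DNAJB1 were the 2 of 8 lower, against 6.32%, with medians of 0.70 and 0.21. The members' log2 ratios ran from -2.305 to 2.90 in Arg-, against -2.716 to 1.021 without the drug. In Leu- they ran from -1.709 to 1.834, against -2.201 to 1.195, a spread of similar size. The same 2 were at the low end.

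The Met- library with cycloheximide allowed little, because it listed so few mRNAs. There 1 of 8 members (HSPA9) was at least 2-fold higher, against 21.0% of all mRNAs, a share that includes mRNAs not listed in Suff. The 4 of 8 at least 2-fold lower were those not listed in Met- and counted as 0, against 61.9% of all mRNAs, a share that was no larger than that of the mRNAs as a whole. The 4 members listed in both libraries, HSPA9, HSP90AA1, HSP90AB1 and HSPD1, had a level above Suff, but a listed value had to lie near or above Suff because of the 64 reads needed, so their direction is fixed by the listing. The interval held 1 for HSPD1. When ratios were centred on the median of mRNAs listed in both libraries, the log2 ratios of HSP90AA1 (0.54) and HSPD1 (0.34) were below 0, at -0.35 and -0.55, that of HSP90AB1 (0.93) was 0.04 and that of HSPA9 (1.68) was 0.79.

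The comparisons of both series, which share no library, were then combined. In Arg- HSPA9 was the 1 of 8 members at least 2-fold higher in both series, against 6.01% of the mRNAs compared in both, and HSPA8 and DNAJB1 were the 2 of 8 lower in both, against 3.45%. Under both centrings of the ratios HSPA8 in Arg- with cycloheximide was short of 2-fold (-0.99 and -0.77), which leaves DNAJB1. In Leu- HSPA9, HSPA8 and DNAJB1 passed, against 4.57% of mRNAs higher and 1.12% lower in both. The shares higher in both again include mRNAs not listed in Suff with cycloheximide and counted as 0. In Met- 0 of 8 were higher in both, against 5.51%, and HSPA8 and DNAJB1 were 2 of 8 lower in both, against 6.35%. That Met- count rests on both mRNAs being counted as 0 with cycloheximide.

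HSPA8 and DNAJB1 differed less between the starved libraries than from Suff. Without cycloheximide HSPA8 was 1.43-fold higher in Leu- than in Arg- (1.25 to 1.65) and 1.22-fold higher in Met- than in Arg- (1.05 to 1.42). HSP90AA1 was 1.71-fold higher in Leu- than in Arg- (1.60 to 1.83), while HSP90AB1 was 1.06-fold higher with an interval that held 1 (0.990 to 1.13). Met- was lower than Leu- for the mitochondrial pair, 1.46-fold for HSPA9 (1.34 to 1.60) and 1.58-fold for HSPD1 (1.47 to 1.70). With cycloheximide the Arg- library was the highest of the 3 for HSPA4, HSPA9, HSP90AA1, HSP90AB1 and HSPD1, at 1.87-fold (HSPD1) to 2.79-fold (HSPA4) above Leu-.

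The levels themselves differed between the series. In Suff the level without cycloheximide over that with it was 11.9 for HSP90AB1 (10.3 to 13.8), 9.10 for HSP90AA1 (8.17 to 10.2), 8.98 for HSPD1 (7.997 to 10.1) and 7.17 for HSPA8 (6.54 to 7.86). It was 4.57 for HSPA9, 3.34 for HSPA4 and 2.39 for HSPH1. The median over the 8 members was 5.87, whereas that over the 5245 mRNAs listed in both Suff libraries was 0.857. The gap was smaller in the Arg- libraries, where the median of the 8 members was 1.61 and that of 7705 mRNAs 0.953. In Leu- it was 3.06 for the members and 0.967 for all, and in Met- 5.61 for the 4 members and 0.595 for the 1934 mRNAs listed in both. The larger folds of most members over Suff with cycloheximide go with these low Suff levels in that series. The drug and the processing cannot be told apart here, because duplicate removal, the lowest read number listed and the inclusion of the stop codon in the coding length differed too. The listing of transcripts per gene also differed. In Leu- 9300 transcripts of 8906 genes were listed with cycloheximide and 10963 of 10962 without it.

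**Figure D4:**
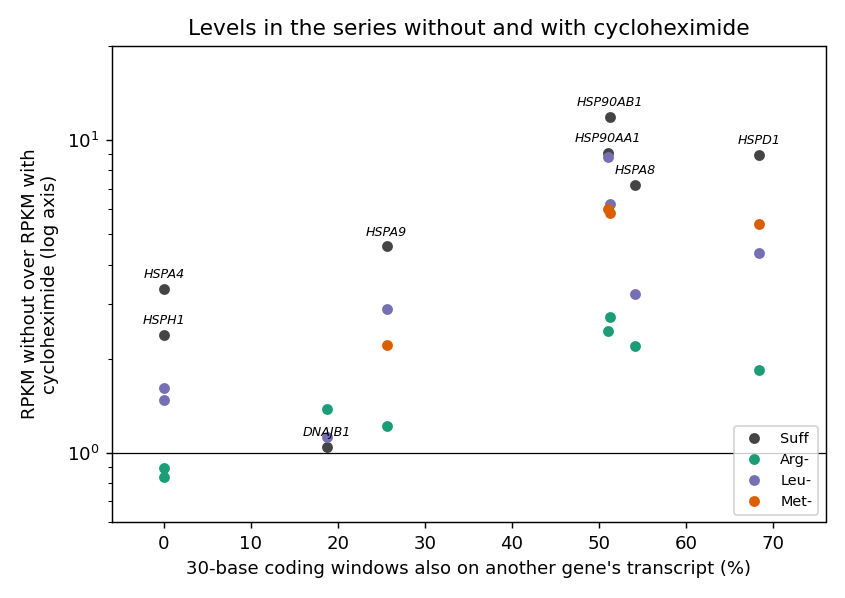
Level (RPKM) without cycloheximide over that with it, on a log axis, for the members listed in both libraries of a medium, against the percentage of 30-base coding windows that also occur on another gene's transcript. Points are single ratios coloured by medium, and names stand at the Suff points, which run from 1.05 (DNAJB1) to 11.9 (HSP90AB1).

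Only uniquely mapped reads were kept, and several members have processed pseudogenes, which can take reads out of the count. The share of 30-base coding windows found on the transcript of another gene was 68.4% for HSPD1, 54.1% for HSPA8, 51.2% for HSP90AB1, 51.0% for HSP90AA1, 25.6% for HSPA9 and 18.7% for DNAJB1. It was 0% for HSPA4 and HSPH1. The genes sharing most were pseudogenes of the same name, HSPD1P1 with 44.7% of the windows of HSPD1 and HSP90AB3P with 39.8% of those of HSP90AB1. In Suff the 4 members with shares above 50% had the 4 largest level ratios between the series, a description over the 8 mRNAs listed in these same 2 libraries. Whether the tables were built on transcripts that include such pseudogenes is not given in the sources used here, and its part in the levels was not tested.

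Heat shock factor binds inverted repeats of the unit GAA, so the promoters of the members were searched for its letters on both strands. The element of 3 units, GAANNTTCNNGAA or TTCNNGAANNTTC, occurred in 172 of 35116 RefSeq promoters (0.49%), each the 250 bases before to 50 after a start. It occurred in 4 of the 16 promoters of the members, those of HSPA8, HSP90AA1, HSP90AB1 and HSPD1. The promoters of HSPA1A and HSPA1B, the inducible forms driven by HSF1, had a 2-unit match and no 3-unit match. That of HSPH1 had neither. The absence of the 3-unit letters therefore does not show that a gene is no target of HSF1. The matches are printed with the units in capitals, and in HSPD1 overlapping matches form 1 run. The HSPA8 matches lie at chr11:123062345-123062374 and chr11:123062170-123062199, the HSP90AA1 match at chr14:102087111-102087140, all on the minus strand of GRCh38.p14, and the HSPD1 match at chr2:197500061-197500090, also minus:
HSPA8, distal: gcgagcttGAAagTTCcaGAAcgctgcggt
HSPA8, proximal: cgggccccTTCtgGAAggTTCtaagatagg
HSP90AA1: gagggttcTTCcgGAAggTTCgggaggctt
HSPD1: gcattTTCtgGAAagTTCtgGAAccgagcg
The HSP90AA1 match lies before the downstream of its 2 starts, whereas the transcript behind its levels begins near the upstream one, which had no match. The HSP90AB1 matches lie at chr6:44247770-44247799 and chr6:44247823-44247852 on the plus strand, before the most downstream of its 3 starts:
HSP90AB1, distal: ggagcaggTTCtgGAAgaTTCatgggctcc
HSP90AB1, proximal: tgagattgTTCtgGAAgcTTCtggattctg
The shorter letters of 2 units, GAANNTTC or TTCNNGAA, which every 3-unit match contains, occurred in 9 of the 16 promoters (56.2%) and in 13.5% of all. DNAJB1, lower under starvation like HSPA8, had a 2-unit match in 2 of its 3 promoters and no 3-unit match. Of the members with the 3-unit letters, HSPA8 was lower without cycloheximide in all 3 starvations. HSP90AA1, HSP90AB1 and HSPD1 stayed within 1.5-fold of Suff there. Whether the letters bear on these levels was not tested. A match is a description of letters and not of binding.

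The share of the missing amino acid in the protein was computed from the coding sequence. Arginine made up 3.45% (HSPA4) to 7.65% (DNAJB1) of the residues, against a median of 5.63% over 14278 listed transcripts. DNAJB1 was the only member above that median, while HSPA8 stood at 4.33%. In Arg- HSPA8 had the lower log2 ratio of these 2 without cycloheximide and DNAJB1 with it. Leucine made up 5.29% (DNAJB1) to 9.02% (HSP90AA1), all below the median of 9.70%. Methionine made up 1.40% (HSPA1A and HSPA1B) to 3.14% (HSPD1), with 2.01% in HSPA8 and 2.65% in HSPA9 around the median of 2.15%.

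Of 91 other genes of the chaperone machinery, 81 were listed in at least 1 library. Without cycloheximide 9 of 72 were at least 2-fold higher in Arg- (8.33% of all mRNAs) and 11 lower (6.05% of all). In Leu- 3 of 73 were higher (6.89% of all) and 4 lower (2.12% of all). In Met- 13 of 75 were higher, a share below the 20.2% of all mRNAs, and 8 were lower (5.47% of all). Their medians, -0.11, -0.03 and 0.13, lay near those of all mRNAs in Arg- and below them in Leu- and Met-. LONP1, the mitochondrial matrix protease, was higher in all 3 starvations in both series. That direction can be fixed by the read number needed for listing in Met- with cycloheximide. Without cycloheximide LONP1 went from 39.9 RPKM in Suff to 95.9 in Arg-, 102 in Leu- and 120 in Met-. It stood on the side of HSPA9. GRPEL1, the nucleotide exchange factor of HSPA9, went the other way in Arg- and Leu-, from 363 RPKM in Suff to 130 and 210. In Met- the log2 ratio of GRPEL1 was -0.32 without cycloheximide and 0.18 with it. Its paralogue GRPEL2 went from 109 RPKM in Suff to 384 in Met-. Without cycloheximide GRPEL2 had log2 ratios of 0.37 in Arg- and 0.68 in Leu-.

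On the cytosolic side HSPB1, a small heat shock protein, was lower in Arg- (log2 ratio -1.27 without and -2.23 with cycloheximide) and in Leu- (-0.91 and -1.13). The HSP90 co-chaperone PTGES3 went from 1916 RPKM in Suff to 796 in Arg- without cycloheximide. In Met- the naming rule passed over mRNAs not listed with cycloheximide, and the following were named after their values were seen. Without cycloheximide they included PTGES3 (-1.745), DNAJA1 (-1.648), HSPB1 (-1.633) and AHSA1 (-1.235), which were lower, and TTC4 (1.511) and BAG4 (1.505), which were higher. Of those the rule could name, the HSP90 co-chaperones NUDC and CDC37 had log2 ratios in Met- of -1.20 and -1.01 without cycloheximide, and only -0.04 and -0.08 with it. BAG5, an exchange factor for HSP70, had log2 ratios of 1.32 and 1.08 in Met-. The read number needed for listing can fix the sign of its ratio with cycloheximide. TOMM70, the mitochondrial import receptor that docks HSP70 and HSP90, had 1.11 and 1.76 in Arg-. The J proteins DNAJC18 (1.06 and 1.09 in Arg-, 1.14 and 0.77 in Leu-) and DNAJC30 (0.98 and 0.22 in Leu-) were higher, whereas DNAJB11 (-0.65 and -0.04 in Leu-) and DNAJC8 (-0.72 and -0.89 in Met-) were lower.

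**Figure D5:**
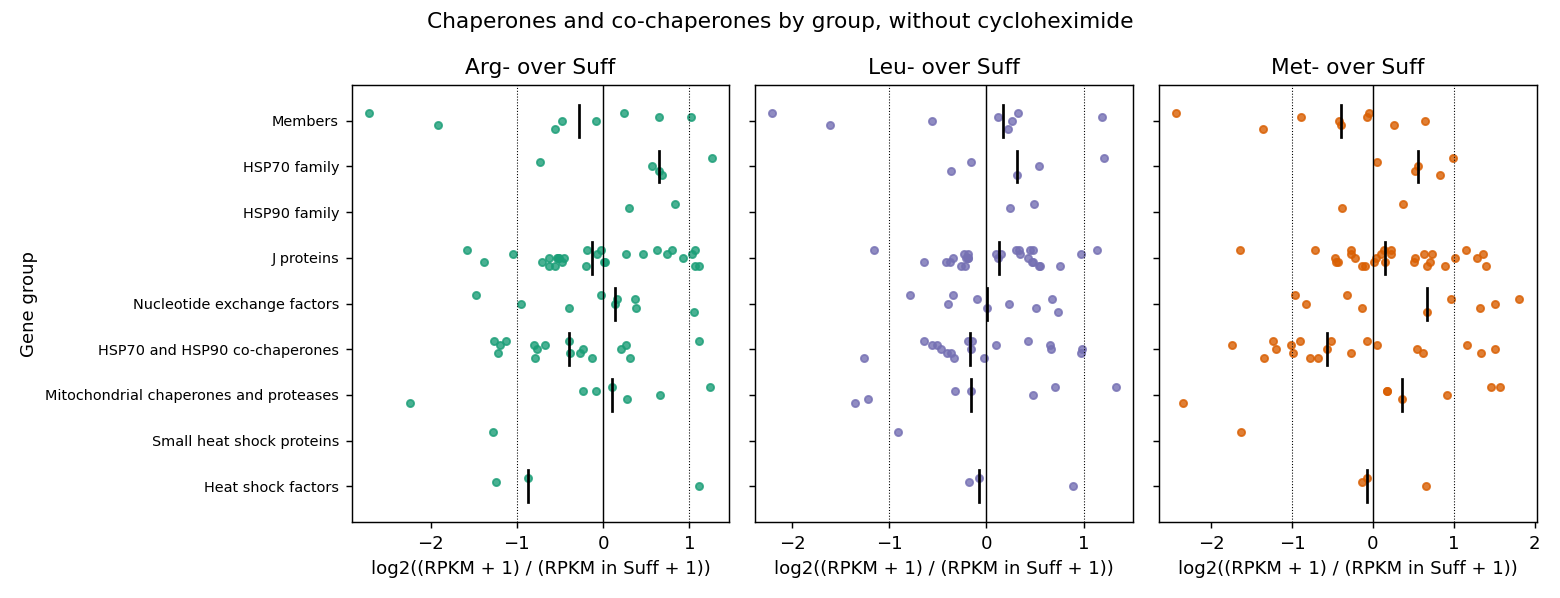
Log2 ratios without cycloheximide of the members and of 8 groups of other chaperone genes, 1 point per mRNA with a mean of at least 10 RPKM in the pair. Black bars are medians of groups with at least 3 mRNAs and dotted lines mark 2-fold, and the lowest point among the members is HSPA8 in each panel.

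By group, the endoplasmic reticulum and other HSP70 genes had medians above those of all mRNAs without cycloheximide, 0.65 in Arg-, 0.32 in Leu- and 0.56 in Met-, with 5 tested in each. At least 2-fold higher were 1 of 5 in Arg- (8.33% of all mRNAs), 1 of 5 in Leu- (6.89% of all) and 0 of 5 in Met- (20.2% of all). Both calls were HSPA13, a microsomal HSP70 named after its values were seen, at log2 ratios of 1.27 and 1.21. At least 2-fold lower were 0 of 5 in each, against 6.05%, 2.12% and 5.47% of all mRNAs, which with so few mRNAs is near those shares. The HSP70 and HSP90 co-chaperones had medians of -0.40, -0.17 and -0.57, with 4 of 17, 1 of 18 and 5 of 19 at least 2-fold lower, against 6.05%, 2.12% and 5.47% of all mRNAs. The J proteins had medians of -0.13, 0.14 and 0.15, with 3 of 28, 1 of 28 and 1 of 29 lower, against the same shares. At least 2-fold higher were 1 of 17, 0 of 18 and 3 of 19 co-chaperones. Among the J proteins 4 of 28, 1 of 28 and 5 of 29 were higher. The shares of all mRNAs higher were 8.33%, 6.89% and 20.2%. With cycloheximide 24 of 66 genes were at least 2-fold higher in Arg- (29.7% of all mRNAs) and 11 lower (18.4% of all). In Leu- 19 of 64 were higher (26.3% of all) and 1 lower (6.32% of all). The rises include mRNAs not listed in Suff and counted as 0, such as HSPA13 in Arg- and Leu-, so these counts depend on the listing. In Met- 8 of 55 were higher (21.0% of all) and 33 lower (61.9% of all), 32 of the latter because they were not listed. The shares lower in all 3, and the share higher in Met-, were below those of all mRNAs.

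The mRNAs whose 6 log2 ratios lay nearest to the median of the 4 members listed in all 8 libraries were, of 1699 candidates with at least 10 RPKM in every library, RBBP4 (Euclidean distance 0.517), DDX39B (0.602), KPNB1 (0.695), CCT8 (0.702) and MDH1 (0.744). This median profile was 2.27, 1.26 and 0.74 for Arg-, Leu- and Met- with cycloheximide and 0.08, 0.29 and -0.06 without it. HSPA8, HSPA4, HSPH1, DNAJB1, HSPA1A and HSPA1B are not in it, since they were not listed in Met- with cycloheximide. The 4 members had to be listed there, so their Met- value of 0.74 with cycloheximide could not have been clearly below 0. The candidates passed the same filter. The mRNAs nearest to HSPA8 over its 3 log2 ratios without cycloheximide, a search chosen after the values were seen, were MYH9 (0.570), INSIG1 (0.736), MYH10 (0.932), HSPE1 (0.978) and CCND1 (1.36) of 6651. MYH9, a nonmuscle myosin heavy chain, had ratios of -2.29, -1.99 and -2.74 beside -2.72, -2.20 and -2.43 for HSPA8. A distance over so few ratios that share a Suff library is a description of likeness in these libraries.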

How the data were processed

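The authors deposited 1 table per library, with RPKM for each Ensembl transcript. Per the methods and the labels, the authors trimmed adaptors (cutadapt in the submitters' processing notes), kept reads of footprint length, removed low-quality ends (Trimmomatic), and aligned them by Bowtie to transcripts of the GRCh38 build, allowing no mismatch and keeping unique hits. The annotation release is not given in the sources used here. The names of the tables without cycloheximide mark removal of duplicate reads. No test between conditions was made, as each had 1 library.

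Transcripts were matched to GENCODE release 44 (96.7% to 97.1% matched), and the highest transcript of each gene in each library was taken. Reads were recovered from RPKM times coding length, with a tolerance of 0.01 reads. Of the matched values 96.9% to 97.4% were whole, and intervals are exact 95% conditional binomial (Clopper-Pearson) ones. Ratios used a pseudocount of 1 and a filter of 10 RPKM. Unlisted mRNAs counted as 0, or at the lowest listed read number for bounds. Other chaperone genes were named where they had at least 10 RPKM in both pairs, the same sign in both series and at least 1.5-fold without cycloheximide, up to 3 in each direction. In Met- this passed over mRNAs not listed with cycloheximide. Exceptions are marked. Where the Suff level with cycloheximide was low, listing in Met- can itself fix a higher value, and the same sign in both series then shows little. The members and lists were chosen with earlier results of these data known. Alternatives were another pseudocount, filter, fold limit, choice of transcript, centring, treatment of unlisted mRNAs, and leaving out HSPA1A and HSPA1B. The scripts were tested on simulated data. Python, numpy, pandas, scipy and matplotlib were used.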

Additional observations from a re-analysis of the deposited data

Results flagged for a closer look

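Of the chaperone mRNAs, 2 differed from Suff in opposite directions in the 2 series under the same starvation with both counting intervals away from 1. Other members had opposite signs with at least 1 interval that held 1, such as HSPD1 in Arg- (2.19 and -0.08). HSP90AA1 in Arg- had a log2 ratio of 1.32 with cycloheximide and of -0.56 without it, a difference of 1.88. HSPH1 in Arg- had 0.90 with cycloheximide and -0.48 without it, a difference of 1.38. With 1 library per condition these differences were not tested. The Suff levels of both mRNAs were lower with cycloheximide than without it, 54.9 against 499 RPKM for HSP90AA1 and 20.2 against 48.2 RPKM for HSPH1, and their part in the differences was not tested.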

How the results depend on the processing

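No paired analysis was possible because each condition had 1 library. HSPA8 and DNAJB1 kept their direction under all 8 alternatives in all 6 comparisons. So did HSPA9, whose direction in Met- with cycloheximide was fixed by the 64 reads needed for listing. HSPA9 in Met- without cycloheximide was past 2-fold under 0 of 8. Of the members' single ratios, 328 values stayed within counting error and 52 moved. HSPA4 and HSPH1 in Met- with cycloheximide reversed when ratios were centred on all mRNAs (0.22 and 0.43) and when unlisted mRNAs counted at the lowest read number (0.97 and 1.15). The members' median in Met- with cycloheximide (-2.03) reversed to 0.44 with a filter of 50 RPKM, to 2.80 when centred on all mRNAs and to 0.74 at the lowest read number. It was -3.66 with a pseudocount of 0.1 and -2.92 when centred on mRNAs listed in both libraries. The higher count there (1) became 4 and 0 under those 2 centrings, 2 at the lowest read number and 2 at 1.5-fold, and the lower count (4) became 2 with the filter of 50 RPKM, 2 when centred on all mRNAs and 0 at the lowest read number. In Arg- with cycloheximide the median was 2.19 with the filter of 50 RPKM and 1.99 when centred on mRNAs listed in both, and the lower count was 1 under both centrings, since HSPA8 no longer passed 2-fold. Without cycloheximide the Arg- median was -0.081 with the filter of 50 RPKM and -0.48 with no filter, the Leu- median was 0.029 under both centrings, and the Met- median was -0.23 with the filter of 50 RPKM or without HSPA1A and HSPA1B and -0.71 under both centrings. At 1.5-fold the higher count was 2 in Arg- and 1 in Met-. The other 148 values of counts and medians stayed within 1.5 times the count or within counting error of the median. Depth limits the Met- library with cycloheximide most, where an mRNA needs 64 of 538222 reads to be listed.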
